A study of Xenopus laevis with 8 samples.

Results

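The 15 gene IDs described here had RNA levels in Xenopus laevis ectoderm that were lower at stage 10.5 than at stage 9 and raised again at stage 12.5. They were chosen by that pattern. CPM, a gene's count divided by its library's total count and multiplied by 1000000, had to be at least 10 in both stage 9 libraries. At stage 10.5 it had to be lower than at stage 9 by a factor of at least 2, and at stage 12.5 higher than at stage 10.5 by a factor of at least 2, within replicate A and again within replicate B. Symbols beginning with grhl, krt, hes, fox, sox or slc4a were to be left out, and 0 gene IDs that met the thresholds had such a symbol. Of 51017 gene IDs in the tables, 12202 reached the level at stage 9, 3741 of these (30.7%) dipped, and 15 of the 3741 (0.401%) returned. Whether or not they dipped, 68 of the 12202 rose at least 2-fold from stage 10.5 to stage 12.5 in both letters. The dip and the return are therefore how the genes were picked, and their sizes are given below as a description, with no test.

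The libraries came from wild-type, untreated animal caps, the prospective ectoderm cut from blastulae at stage 8 and grown in saline until stage 9 (late blastula), stage 10.5 (early gastrula), stage 11.5 or stage 12.5 (late gastrula). Each of the 4 stages has 2 libraries, A and B, whose titles give a letter without saying what it stands for. P-values therefore measure the spread between these libraries, which may be technical, and the number of explants per library is not given in the sources used here. RNA was selected by its poly-A tail and the libraries do not mark strand. Total counts per library lay between 33170889 and 45511790. The lowest count of any of the 15 genes in any library was 88, for ncoa1.L at stage 10.5 in B.

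In the early frog embryo, development runs on RNA stored in the egg until the zygotic genome is switched on at the midblastula transition, shortly before stage 9. Stored messages are then marked for clearance, often by loss of the poly-A tail followed by decay. Many genes are used both before and after this handover, so a stored message can be removed while the embryo's own copy is being made. Poly-A selection captures messages with short tails poorly, so tail shortening and loss of the RNA cannot be told apart in these counts. No value in the files separates stored from newly made RNA, and in bulk explants fewer cells of a type and less RNA per cell cannot be told apart either. The genes are therefore called dip-and-return genes rather than maternal and zygotic.

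Ectodermal markers were present at every stage, though not all of them at stage 9. The summed CPM of 47 gene IDs of non-neural ectoderm and epidermis was 3430 and 3560 at stage 9, and 12500 and 11700 at stage 12.5, in A and B. The epithelial gene epcam made up 1100 and 1130 CPM of the stage 9 sums, where dlx3 (0.228 and 0.703 CPM) and gata3 (0.319 and 0.615 CPM), early regulators of the epidermis, were near 0. Sums for mesoderm and endoderm (36 gene IDs) lay between 30.7 and 117 CPM, highest in stage 10.5 replicate B, where t, the Brachyury gene of mesoderm, summed to 31.8 CPM against 5.64 CPM in A. For neural genes (26 gene IDs) they were 248 and 250 CPM at stage 10.5 against 61.0 and 76.4 CPM at stage 9. From stage 10.5 on, the neural sums lay between 220.0 and 250 CPM. For germ plasm (13 gene IDs) sums lay between 256 and 404 CPM. Of the epidermal markers, tp63 stood at 1.37 CPM or less in every library. The part of these other cell types in the results was not tested.

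**Figure D1:**
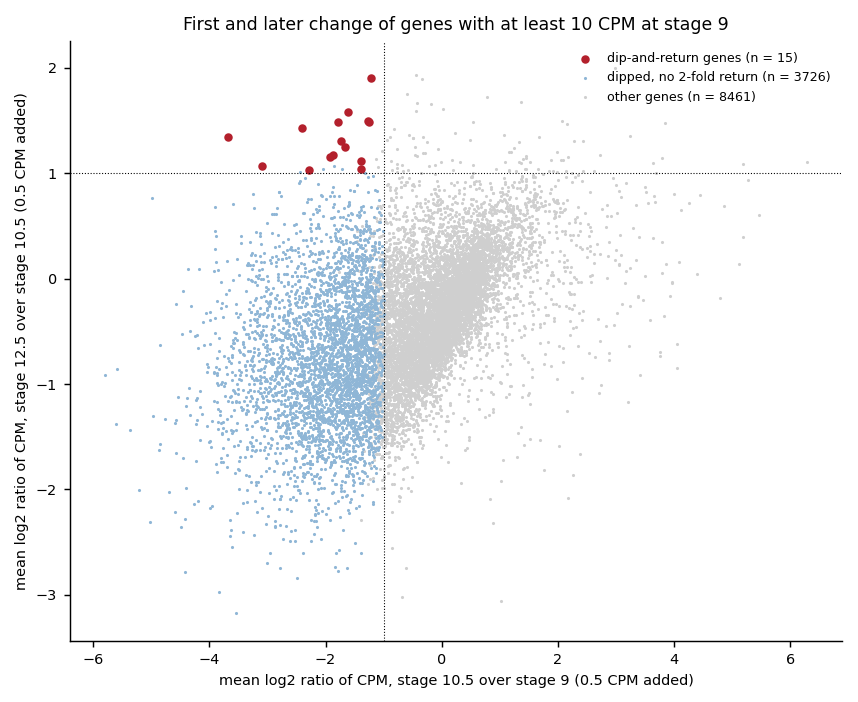
Each point is 1 of 12202 gene IDs with at least 10 CPM in both stage 9 libraries. The horizontal axis is the log2 ratio of stage 10.5 to stage 9 CPM and the vertical axis that of stage 12.5 to stage 10.5, each with 0.5 CPM added and averaged over A and B. Dotted lines mark a 2-fold change. The 15 dip-and-return genes lie at the upper left, and the 3726 genes that dipped without a 2-fold return lie mostly below 0 on the vertical axis.

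The first group of members acts on microtubules and cell scaffolds, and it held the 5 highest mean stage 9 levels. kif18a.L (gene18654) encodes a kinesin-8 motor that steadies chromosomes on the mitotic spindle. It stood at 115, 21.1, 38.4 and 56.2 CPM at the 4 stages, in their order, in A, and at 120.1, 22.2, 33.3 and 62.8 CPM in B. The letters gave similar curves, and the stage 12.5 level was 48.9% (A) and 52.3% (B) of the stage 9 level. mtus1.L (gene13625), a microtubule-associated protein known as a tumour suppressor in humans, stood at 81.8, 27.1, 31.0 and 64.9 CPM in A, and at 105, 23.0, 34.2 and 49.5 CPM in B. Its stage 12.5 level was 79.4% of stage 9 in A and 47.2% in B, so the letters differed in how far it came back. ccser2.L (gene15120), a coiled-coil protein whose human counterpart bundles microtubules, had 49.5, 11.2, 12.9 and 22.8 CPM in A, and 59.4, 10.3, 15.9 and 22.4 CPM in B. The return of ccser2.L was the smallest of the 15 in A, at 2.03-fold over stage 10.5.

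tanc1-like.L (gene1816) and tanc1-like.S (gene1312) are named after TANC1, an ankyrin-repeat scaffold of synapses in mammals, and are a homeologous pair: Xenopus laevis is an allotetraploid, and .L and .S mark the copies from its 2 ancestral genomes. tanc1-like.L had 75.1, 7.63, 11.4 and 16.9 CPM at the 4 stages in A, and 67.9, 8.21, 8.03 and 17.4 CPM in B. tanc1-like.S had 61.8, 5.04, 8.24 and 14.5 CPM in A, and 67.0, 4.16, 5.28 and 10.6 CPM in B. Both copies had a deep dip and a return to less than 30% of the stage 9 level. The S copy had the deepest dip of all 15 members, with stage 9 levels 12.3-fold (A) and 16.1-fold (B) above stage 10.5, and at stage 12.5 it held 23.5% (A) and 15.8% (B) of its stage 9 level. How reads shared by near-identical copies were assigned is not given in the sources used here, so the values of either copy are uncertain to that extent.

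The members with roles in signalling and in membranes or the cytoplasm had smaller dips than the tanc1-like copies. map3k10.L (gene13501), a mixed-lineage kinase that activates the JNK pathway, had 51.6, 12.9, 14.1 and 31.6 CPM in A, and 56.0, 14.6, 14.6 and 30.9 CPM in B. By stage 11.5 it had made 6.30% (A) and -0.07% (B) of its return, so nearly all of it came later. ptpn14.L (gene1901), a tyrosine phosphatase that binds the growth regulator YAP, had 41.9, 16.8, 31.4 and 35.5 CPM in A, and 34.2, 11.9, 21.7 and 24.9 CPM in B. Most of its return came early, with 78.0% in A and 75.6% in B made by stage 11.5. A was above B at every stage for ptpn14.L. fam69a.L (gene13086, listed as dipk1a.L in RefSeq), an endoplasmic reticulum protein of a kinase-like family, had 24.8, 7.75, 13.6 and 26.8 CPM in A, and 23.7, 7.50, 10.4 and 21.1 CPM in B. lgalsl.L (gene10368), a galectin-related protein, had 23.3, 10.9, 14.8 and 42.8 CPM in A, and 21.2, 7.87, 11.3 and 30.4 CPM in B. It made the largest return of the 15, 3.93-fold in A and 3.86-fold in B, and both stage 12.5 libraries were above both stage 9 libraries.

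Both DNA repair enzymes among the members had moderate levels. lig4.L (gene8620), the ligase that seals breaks in non-homologous end joining, had 37.9, 9.95, 14.9 and 23.4 CPM in A, and 36.2, 11.8, 13.0 and 32.1 CPM in B. polk.L (gene9477), a translesion DNA polymerase, had 22.3, 7.26, 8.35 and 14.9 CPM in A, and 18.5, 7.73, 9.88 and 19.1 CPM in B. For both, A was above B at stage 9 and below it at stage 12.5. The nuclear regulators were nfe2l3.S and ncoa1.L. nfe2l3.S (gene19896), a bZIP transcription factor related to Nrf2, had 25.0, 5.25, 9.34 and 17.1 CPM in A, and 17.2, 6.13, 8.44 and 16.4 CPM in B. ncoa1.L (gene18964), a steroid receptor coactivator, had 11.4, 3.83, 4.28 and 9.83 CPM in A, and 10.3, 2.47, 6.04 and 6.50 CPM in B. It was the lowest of the 15 at stage 9, and by stage 11.5 it had made 7.48% of its return in A and 88.6% in B. The last member, LOC108717044 (gene46083), has no descriptive name in the files or in RefSeq. It had 21.5, 8.71, 13.0 and 23.9 CPM in A, and 19.6, 7.92, 14.2 and 24.6 CPM in B, with both stage 12.5 libraries above both stage 9 libraries.

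**Figure D2:**
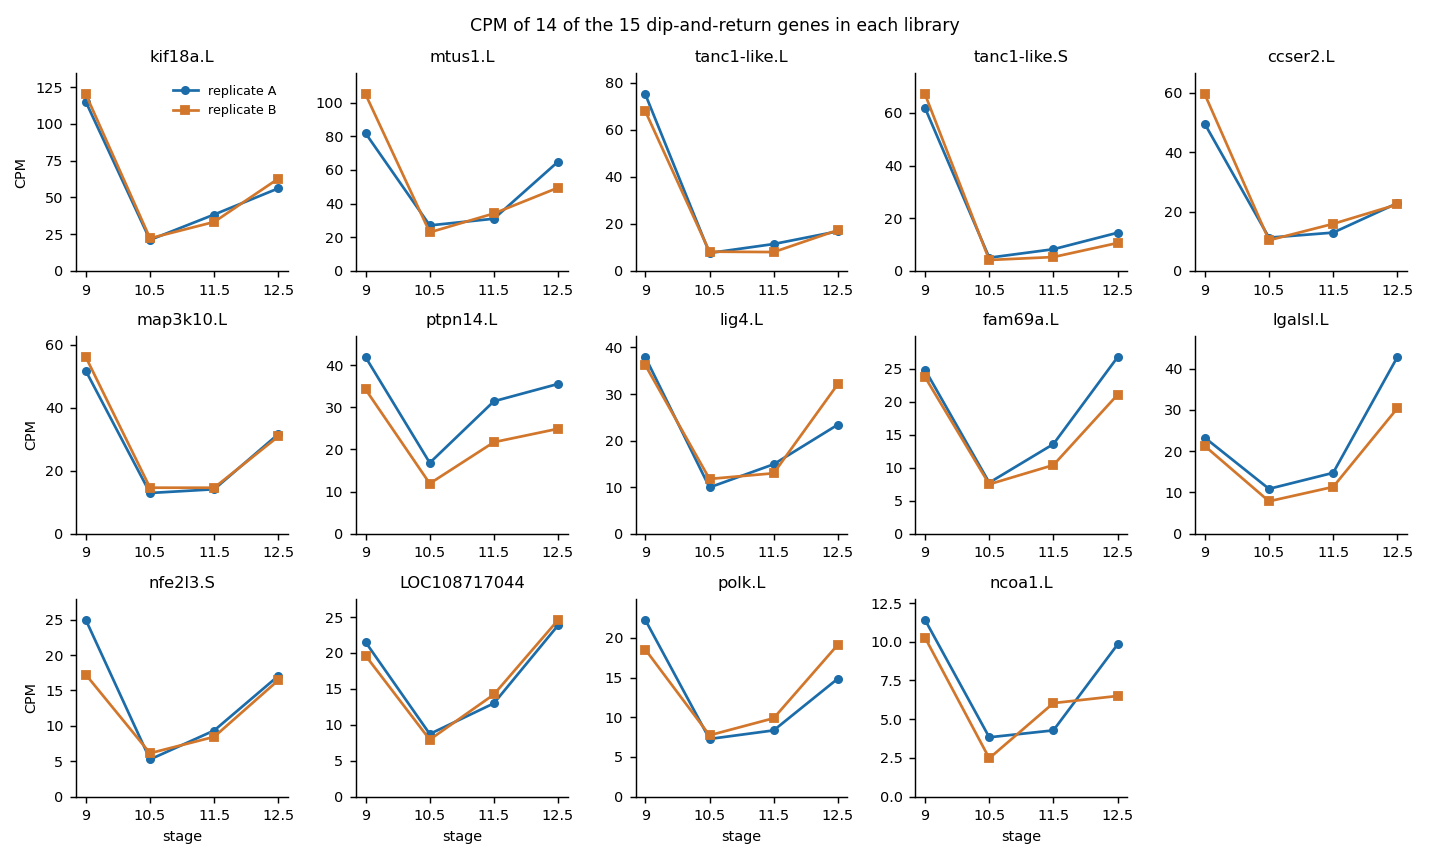
Each panel is 1 of 14 of the 15 genes, with CPM on the vertical axis from 0 and the 4 stages on the horizontal axis, as categories. Blue circles are replicate A and orange squares replicate B, 1 library per point. All panels are low at stage 10.5, which is how the genes were chosen, and kif18a.L is highest at stage 9, at 115 and 120.1 CPM.

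The depth of the dip and the extent of the return varied several-fold among the members. The stage 9 level was between 2.14-fold (lgalsl.L) and 12.3-fold (tanc1-like.S) above stage 10.5 in A, with a median of 3.21-fold, and up to 16.1-fold (tanc1-like.S) in B, with a median of 3.16-fold. Returns covered a narrower range, from 2.03-fold (ccser2.L) to 3.93-fold (lgalsl.L) in A and from 2.09-fold (ptpn14.L) to 3.86-fold (lgalsl.L) in B. At stage 12.5, 10 of the 15 genes were below their stage 9 level in both letters and 3 were above it in both, among them lgalsl.L and LOC108717044. The other 2, fam69a.L and polk.L, were above in 1 letter only. Without overlap between the libraries, 9 genes were lower and 2 were higher at stage 12.5 than at stage 9. The same shares over all genes were not computed, so these counts are a description only.

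These positions relative to stage 9 depend on how libraries are scaled. With TMM scaling, which corrects library sizes for the make-up of the RNA, 4 genes were above stage 9 in both letters and 5 were below, and the mean log2 ratio changed sign for fam69a.L (0.29 with TMM, -0.03 with total counts), nfe2l3.S (0.01 and -0.31) and polk.L (0.05 and -0.27). lgalsl.L and LOC108717044 remained above their stage 9 level on average. kif18a.L, with a mean log2 ratio of -0.66 with TMM, and tanc1-like.L, with -1.74, remained below.

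**Figure D3:**
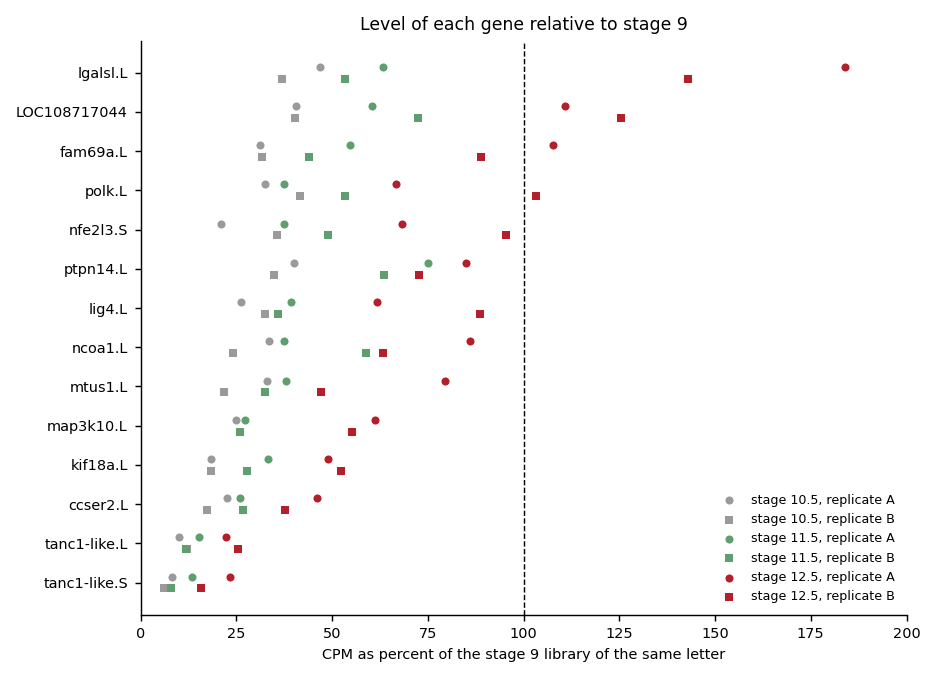
For 14 of the 15 genes, CPM at stages 10.5 (grey), 11.5 (green) and 12.5 (red) is shown as a percent of the stage 9 library of the same letter, with circles for A and squares for B. The dashed line is 100%, the stage 9 level. At stage 12.5, lgalsl.L lies at 184% in A and 143% in B, whereas tanc1-like.S lies at 23.5% and 15.8%.

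The stage 11.5 libraries took no part in choosing the genes, although stages 10.5 and 12.5, beside which they are set, did. At stage 11.5 all 15 genes lay between their stage 10.5 and stage 12.5 levels in A, and 13 of 15 did in B. The exceptions in B were tanc1-like.L, at 8.03 CPM against 8.21 CPM at stage 10.5, and map3k10.L, at 14.6 CPM at both stages. For 12 of the 15 genes both stage 11.5 libraries were above both stage 10.5 libraries, whereas this held for 13.5% of all 28490 genes tested. Because the members were chosen for low stage 10.5 values, this share is a description only. The median share of the return made by stage 11.5 was 28.3% in A and 21.4% in B, and 13 genes had made under 50% in both letters. ptpn14.L was the only member past 50% in both.

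The steps on either side of stage 11.5 are set beside those of other genes as a description, since low stage 10.5 and high stage 12.5 values chose the members and their absence the rest. The median log2 ratio of stage 11.5 to stage 10.5, with 0.5 CPM added, was 0.55 in A and 0.45 in B for the 15 members, against -0.23 and -0.49 for the 3726 other dipped genes and -0.06 and -0.15 for all genes tested. For stage 12.5 over stage 11.5 it was 0.84 and 0.92 for the members, -0.52 and -0.33 for the other dipped genes and -0.17 and -0.07 for all genes tested. In the authors' deposited table for stage 11.5 against stage 10.5, which rests on the same stage 10.5 libraries and is no independent evidence, all 15 members had a positive log2 fold change, from 0.15 for map3k10.L to 0.73 for ptpn14.L. The authors' adjusted p-values for this step are not given for the members, because low stage 10.5 values chose them.

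The thresholds set the membership closely. Just inside the dip threshold were lgalsl.L and polk.L, at 2.14-fold and 2.40-fold in the letter with the smaller dip. Just outside it were MGC85058 (1.90-fold), zzz3.S (1.88-fold) and mst1r.L (1.77-fold). At the return threshold, ccser2.L (2.03-fold), polk.L (2.05-fold) and ptpn14.L (2.09-fold) were inside, and topbp1.L (1.98-fold), rnf43.S (1.98-fold) and tiam1.S (1.93-fold) were outside. At the level threshold, ncoa1.L (10.3 CPM), nfe2l3.S (17.2 CPM) and polk.L (18.5 CPM) were inside, and gmpr2.S (9.65 CPM), saxo2.L (9.61 CPM) and Xelaev18039754m (9.32 CPM) were outside. Scaling by TMM gave 34 genes, 14 of them among the 15, and lost ncoa1.L. The median log2 fold change of all genes at stage 12.5 over stage 10.5 was -0.30 when libraries were scaled by total counts and 0.00 with TMM.

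The make-up of the members by subgenome depended on the scaling of the libraries. With total counts the ending was .L in 12 and .S in 2, and 1 symbol had neither, and 85.7% of the members with an ending were L copies. The share was 56.5% among genes that dipped without return and 58.0% among all genes with at least 10 CPM at stage 9. With TMM scaling it was 59.3% of the genes meeting the rule, and with DESeq2 size factors 55.2%, close to the 58.0% of all genes with at least 10 CPM at stage 9 under either. These 2 scalings were chosen for this share after seeing the data.

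The homeologs of the members were not used to choose them, so they could be tested. Both tanc1-like copies were members. Of the other members, 8 had a partner in the authors' table of symbols, 4 (kif18a.L, map3k10.L, lig4.L and polk.L) had none there, and LOC108717044 carries no ending. Since partners that also met the rule would count as members, the 8 are, by construction, copies that missed it with total counts. lgalsl.S met it with TMM scaling and with DESeq2 size factors. With DESeq2 size factors its L copy, lgalsl.L, no longer met it. mtus1.S (gene27118) had 6 counts over all 8 libraries and was not tested. The question for the other 7 was whether the partner copy changed in the same way at each step. Their CPM is scaled by total counts, whereas the log2 fold changes tested by edgeR use TMM. At stage 12.5 over stage 10.5 the median over all genes was -0.30 with total counts and 0.00 with TMM. Returns of members in CPM and log2 fold changes of partners are therefore not on the same scale.

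ptpn14.S (gene8792) ran against its L copy from stage 9 to stage 10.5 and with it from stage 10.5 to stage 12.5. It had 14.5, 48.6, 87.6 and 102 CPM at the 4 stages in A, and 9.51, 32.6, 67.0 and 76.6 CPM in B, higher at each successive stage in both letters. It rose at stage 10.5 over stage 9, with a log2 fold change of 1.79 ± 0.34 (SE) and a Benjamini-Hochberg adjusted p of 0.00371 (edgeR, quasi-likelihood test). It rose again at stage 12.5 over stage 10.5 (1.44 ± 0.33, adjusted p 0.0297 in the same edgeR test). Summed over both copies, ptpn14 showed no dip: 56.4, 65.4, 119 and 137 CPM in A, and 43.8, 44.5, 88.8 and 102 CPM in B. The L copy supplied 74.3% (A) and 78.3% (B) of that sum at stage 9, and 25.9% and 24.5% at stage 12.5. Such shares are not corrected for the length of either copy.

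ncoa1.S (gene15399) was not called lower at stage 10.5, with 3.78, 5.46, 7.17 and 13.5 CPM in A, and 5.21, 4.86, 8.74 and 8.87 CPM in B. Its log2 fold change at stage 10.5 over stage 9 was 0.23 ± 0.34 (SE), which did not pass (edgeR adjusted p 0.61). ncoa1.S rose at stage 12.5 over stage 10.5 (1.43 ± 0.34, adjusted p 0.033, and 0.013 in edgeR with the replicate letter as a block). The summed CPM of the ncoa1 pair was 0.611 (A) and 0.474 (B) of the stage 9 value at stage 10.5. ccser2.S and lgalsl.S did dip with their L copies. ccser2.S (gene12077) had 47.6, 12.2, 13.9 and 19.6 CPM in A, and 41.3, 11.5, 10.7 and 14.8 CPM in B, and fell at stage 10.5 by 1.88 ± 0.26 (SE) on the log2 scale (edgeR adjusted p 8.6e-04). lgalsl.S (gene8634) had 24.0, 4.40, 2.56 and 7.88 CPM in A, and 32.7, 6.32, 5.63 and 10.9 CPM in B, and fell by 2.39 ± 0.39 (adjusted p 0.0021). From stage 10.5 to stage 12.5 their log2 fold changes were 0.85 ± 0.25 (ccser2.S) and 1.1 ± 0.38 (lgalsl.S), with edgeR adjusted p of 0.064 and 0.10 by stage alone. With the replicate letter as a block they were 0.83 and 1.11, with adjusted p of 0.0083 and 0.011, and both copies then rose.

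fam69a.S and nfe2l3.L had their highest levels at stage 9 and no return that passed the test. fam69a.S (gene19729) had 23.7, 7.21, 4.43 and 1.39 CPM in A, and 20.5, 7.78, 4.72 and 4.46 CPM in B. It dipped at stage 10.5 as its L copy did, and was lower still at stage 12.5, where the L copy stood at 26.8 and 21.1 CPM. fam69a.S fell at stage 10.5 by 1.54 ± 0.43 (SE) on the log2 scale, with an edgeR adjusted p of 0.0206, and its log2 fold change from stage 10.5 to stage 12.5 was not called (-1.1 ± 0.43, adjusted p 0.14). The L copy supplied 51.2% (A) and 53.6% (B) of the summed fam69a CPM at stage 9, and 95.1% and 82.5% at stage 12.5. nfe2l3.L (gene15961) had 14.6, 8.86, 7.56 and 6.94 CPM in A, and 8.83, 4.78, 3.25 and 3.66 CPM in B. Its log2 fold change at stage 10.5 was -0.74 ± 0.57 (edgeR adjusted p 0.32) by stage alone and -0.78 ± 0.22 with the block (adjusted p 0.015), where it fell. From stage 10.5 to stage 12.5 the log2 fold change of nfe2l3.L was -0.05 ± 0.57 with TMM (edgeR adjusted p 0.97). With libraries scaled by total counts, as in CPM, it was -0.36 and was not called either (edgeR adjusted p 0.704).

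**Figure D4:**
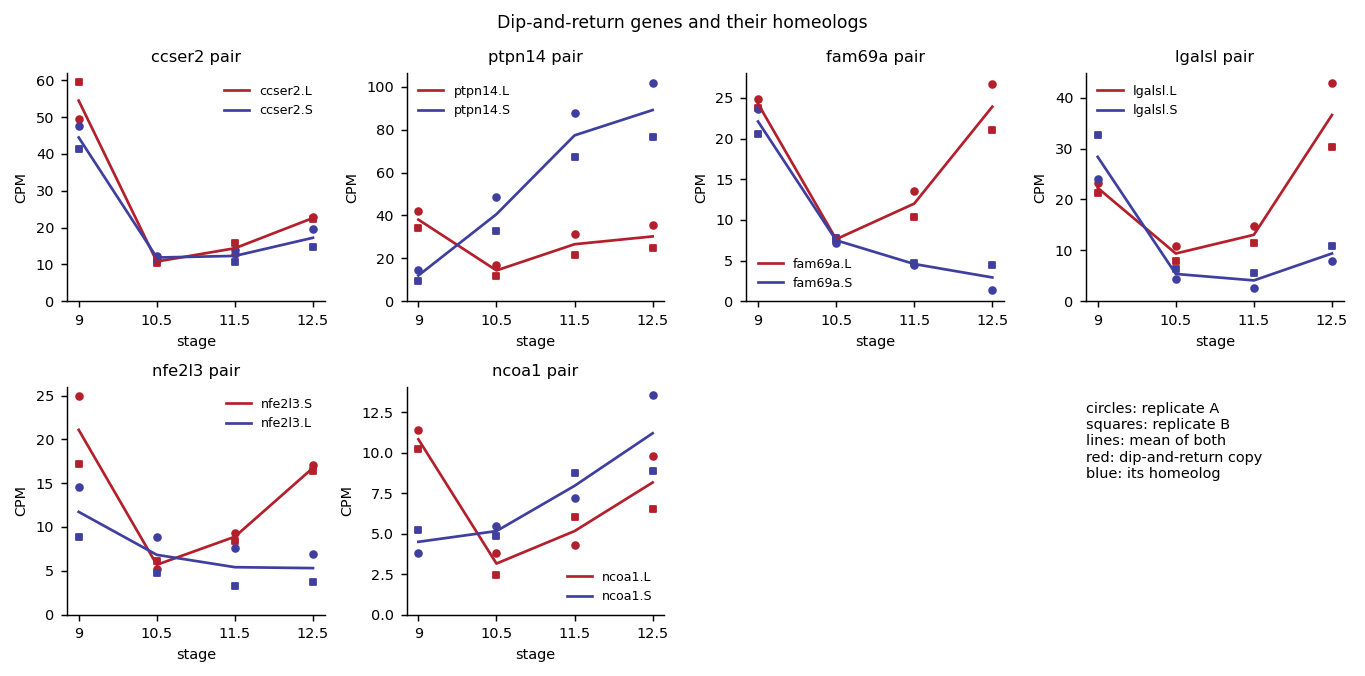
For 6 of the 7 pairs with a tested partner, CPM (vertical axis, from 0) is plotted by stage for the dip-and-return copy in red and its homeolog in blue, with circles for A, squares for B and lines through their mean. Heights of the 2 copies are not corrected for length. ptpn14.S is higher at each successive stage, up to 102 CPM, and fam69a.S ends under 5 CPM while its L copy is at 21.1 CPM or more.

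In all, 3 of the 7 tested partners fell at stage 10.5 over stage 9 and 1 rose, by edgeR's quasi-likelihood test, where 23.3% of all genes fell and 25.0% rose. At stage 12.5 over stage 10.5, 2 rose, where 7.13% of all genes rose and 6.93% fell. At that step edgeR and DESeq2 each called 0 partners lower, and 1 was lower at an unadjusted edgeR p under 0.05. With the replicate block 4 fell and 1 rose at stage 10.5, where 28.1% of all genes fell and 30.3% rose. At the later step 4 rose with the block (ccser2.S, ptpn14.S, lgalsl.S and ncoa1.S), where 13.2% of all genes rose and 13.4% fell. Among 1836 tested partners of genes that dipped without return, 74.4% fell at stage 10.5 and 4.90% rose between stages 10.5 and 12.5. Copies that themselves dipped without return were kept among the 1836, whereas copies that were members were left out of the 7. These sets therefore cannot be compared directly. The fits with 1 library left out, given next, were by stage alone and did not use the pairing of the letters. The rise of ptpn14.S after stage 10.5 was no longer called without stage 10.5 replicate A, stage 10.5 replicate B or stage 12.5 replicate A (edgeR adjusted p from 0.0506 to 0.196), and that of ncoa1.S without any of these 3 or either stage 11.5 library (adjusted p from 0.0573 to 0.221). The fall of fam69a.S was not called without stage 9 replicate A or either stage 10.5 library (adjusted p from 0.0704 to 0.0903), and its later log2 fold change was called without stage 12.5 replicate B (-2.03, adjusted p 0.0206).

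Genes related to the members by family or pathway were compared next. They were listed from general knowledge once the members were known, and none of them is a member. Of 100 tested relatives in 11 families, 44 fell and 15 rose at stage 10.5 over stage 9 by edgeR's quasi-likelihood test. Of all genes, 23.3% fell and 25.0% rose at that step. At stage 12.5 over stage 10.5, 3 relatives rose and 12 fell, where 7.13% of all genes rose and 6.93% fell. By stage alone 0 relatives fell and then rose in edgeR's test (4 at an unadjusted p under 0.05, and 1 by DESeq2), and 230 of all genes (0.807%) did. With the replicate block 12 relatives rose and 16 fell at the later step, where 13.2% of all genes rose and 13.4% fell. In the blocked test 3 of the 100 relatives, kif23.L, rev3l.L and tead1.S, fell and then rose, as did 1.71% of all genes.

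Around ptpn14.L, 12 of 18 tested Hippo pathway genes and ptpn21 copies fell at the first step and 3 rose (14 and 3 with the block). At the later step 1 rose and 2 fell (4 and 3 with the block). ptpn21.L, the sister phosphatase, had 1.69 and 3.54 CPM at stage 10.5 against 41.5 and 45.8 CPM at stage 9, a fall of 4.05 ± 0.49 (SE) on the log2 scale (edgeR adjusted p 4.9e-04), and it stood at 0.694 and 1.83 CPM at stage 12.5. wwtr1.S, which encodes the YAP-related coactivator TAZ, rose at both steps, with log2 fold changes of 1.2 ± 0.19 (SE) and 1.38 ± 0.19 (edgeR adjusted p 0.0018 and 0.0070). tead1.S, a DNA-binding partner of YAP, had 29.7, 5.97, 9.31 and 9.45 CPM at the 4 stages in A, and 27.3, 7.73, 12.2 and 9.18 CPM in B.

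Around kif18a.L, 4 of 17 mitotic kinesin genes fell at the first step and 1 rose (6 and 1 with the block). At the later step edgeR called 0 by stage alone, against 6 at an unadjusted p under 0.05 and 2 by DESeq2, and with the block kif23.L and kif11.S rose and kif2c.L fell. Their median log2 fold change at the first step was -0.08, against 0.11 over all genes tested. Among 8 end-joining genes, 3 fell at the first step and 1 rose (4 and 1 with the block), and with the block 1 fell at the later step. xrcc5.L, the Ku80 subunit that binds broken ends, rose at the later step, with 16.3 and 12.7 CPM at stage 12.5 against 8.32 and 7.92 CPM at stage 10.5 (log2 fold change 1.14 ± 0.30 (SE), edgeR adjusted p 0.046). Of 6 translesion synthesis genes, 2 fell at the first step (4 with the block) and 3 at the later one, where 1 rose with the block. Of 6 genes of p160 coactivators and their partners, 3 fell at the first step (ncoa3.S, crebbp.S and crebbp.L) and 1 rose, and with the block 4 fell and 2 rose. The one that rose by stage alone, ncoa2.L, rose at both steps, with log2 fold changes of 0.78 ± 0.17 and 0.96 ± 0.17 (SE; edgeR adjusted p 0.0079 and 0.014). Its homeolog ncoa2.S had log2 fold changes of -0.66 (adjusted p 0.068) and 0.05 (adjusted p 0.92), and fell at the first step with the block. For the JNK cascade around map3k10.L, 5 of 10 genes fell at the first step and 1 fell at the later one. Of 14 CNC bZIP, small Maf and Keap1 genes around nfe2l3.S, 6 fell and 3 rose at the first step (7 and 3 with the block), and 2 fell at the later one (3 with the block). Of 7 tested galectin genes, relatives of lgalsl.L, 4 rose and 1 fell at the first step (5 and 1 with the block), and 2 rose at the later one with the block. Of 3 tested FAM69 family genes, 1 fell and 1 rose at the first step (1 and 2 with the block), and 1 rose at the later one with the block. Of the relatives of mtus1, tanc1 and ccser2, both tested genes (ccser1.L and tanc2.L) fell at the first step.

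Among 657 tested list entries in 18 lists of maternal, cell type, signalling and housekeeping genes, 0 were dip-and-return genes. The members made up 15 of all 28490 genes tested, so 0 among 657 entries is a description only. Of 36 maternal and oocyte transcripts, 25 fell at stage 10.5 over stage 9, and 11 fell (17 with the block) and 1 rose at stage 12.5 over stage 10.5. Of 46 genes of non-neural ectoderm and epidermis, 36 rose and 2 fell at the first step, and 19 rose and 1 fell at the later one (28 and 2 with the block). In the lists as a whole, 5 genes (0.761%) fell and then rose by edgeR's quasi-likelihood test, and 12 (1.83%) with the replicate block, near the 0.807% and 1.71% of all genes. fgfr1.S, an FGF receptor, had 176, 79.0, 97.7 and 121 CPM at the 4 stages in A, and 179.6, 79.8, 107 and 118 CPM in B. bmpr1a.S, a BMP receptor, kmt2a.S, a histone methyltransferase, and cnot3.S, a subunit of the deadenylase complex, were also among them. These 4 had log2 fold changes at the later step from 0.49 (cnot3.S) to 0.89 (fgfr1.S), and all 4 were S copies.

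Overlapping genes can change the reads counted for a member, because the kit named in the labels does not mark strand. How reads that lie on more than 1 gene were counted is not given in the sources used here. By symbol, 13 members matched RefSeq (Xenopus laevis v10.1), and 2 of these overlapped another gene there. tanc1-like.L and tanc1-like.S were not matched, so overlaps with them were not checked. LOC108713814, which overlaps kif18a.L, had at most 0.901 CPM in any library, a value that does not show how many reads the 2 genes share. LOC121395404, which overlaps ccser2.L, could not be matched to the authors' symbols and was not analysed here.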

How the data were processed

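The authors deposited raw counts per gene for each of 8 libraries, which are whole numbers without normalization. Per the submitters' processing notes the tools were FastQC 0.11.5, STAR 2.6.0b-1, featureCounts 1.6.3 and DESeq2 1.22.1, and the genome build is not given in the sources used here. The authors also deposited log2 fold changes and adjusted p-values for successive stages. Their table of symbols names 48349 of 51017 gene IDs, and the other IDs have no symbol there.

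CPM used total counts. The 28490 genes kept by filterByExpr were tested in R 4.3.3 with edgeR 4.0.16 (TMM, glmQLFit, glmQLFTest) by stage over all 8 libraries, with 4 residual degrees of freedom, and called at a Benjamini-Hochberg adjusted p under 0.05. The code was tested on simulated data. At every pair of stages, same-letter libraries deviated together from their stage means (Pearson r across genes 0.374 to 0.597), so the letters pair the libraries. Blocked values are given for ptpn14.S and ncoa1.S, and elsewhere where they change a call of a partner or the counts of a family of relatives. DESeq2 1.42.0 was an alternative. The members and lists were chosen with earlier results of these data known, and the relatives after the members were known. The members were all to be named, and 1 of them, its partner and its relatives are not reported here by name. Promoter sequences were not analysed here.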

Additional observations from a re-analysis of the deposited data

How the results depend on the processing

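The number of dip-and-return genes was 34 with TMM scaling, 36 with DESeq2 size factors, 24 with a minimum of 5 CPM, 92 with 1.5-fold changes, 0 with 3-fold changes and 34 on the means of both letters. It lay between 36 and 38 with 1 letter left out, where all 15 were kept by construction, and it was 11 with a minimum of 20 CPM. With DESeq2 size factors 13 of the 15 were kept, and lgalsl.L and ncoa1.L were lost. Partners that rose at stage 12.5 over stage 10.5 numbered 4 with the replicate block, 1 with library size scaling, 4 with DESeq2, 4 without the filter, and 0 to 3 with 1 library left out, and those that fell 0 to 1. All genes called at that step numbered 4006, against 7569 with the replicate block, 6195 with DESeq2, and 162 (without stage 10.5 replicate B) to 3388 with 1 library left out. With library size scaling 23.6% of the calls were higher, against 50.7% with TMM. The count at stage 10.5 over stage 9 was 13757, and 9561 to 16642 over all alternatives run. Scaling turned the mean log2 ratio of stage 12.5 to stage 9, with TMM and with DESeq2 size factors (chosen after seeing the data), to 0.29 and 0.345 for fam69a.L, 0.014 and 0.069 for nfe2l3.S and 0.054 and 0.109 for polk.L, and with DESeq2 size factors to 0.029 for ptpn14.L. For nfe2l3.L the log2 fold change of stage 12.5 over stage 10.5, not called, ranged from -0.72 to 0.54 with 1 library left out, and was above 0 without stage 10.5 replicate A (0.54) or stage 12.5 replicate B (0.40). The cause was not tested. Having 2 libraries per stage limits the precision.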

Other observations

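With changes of at least 1.5-fold in place of 2-fold, a setting whose genes were named after their values were seen, 77 further gene IDs dipped and returned in both letters. Both copies of gtpbp2, a GTP-binding protein gene, were among them. gtpbp2.L had 89.0, 30.6, 43.2 and 53.0 CPM at the 4 stages, in their order, in A, and 126, 26.4, 38.7 and 51.9 CPM in B. gtpbp2.S had 27.2, 17.6, 28.5 and 43.0 CPM in A, and 32.7, 17.1, 26.7 and 32.4 CPM in B, so the S copy dipped less than the L copy and ended above its stage 9 level in A and just below it in B. Both copies of dnajb12, a co-chaperone of the endoplasmic reticulum membrane, were also included. The BMP modulator gene twsg1.L had 68.6, 45.3, 61.3 and 79.7 CPM in A, and 72.3, 36.2, 61.7 and 68.8 CPM in B. The DNA damage checkpoint gene topbp1.L had 27.5, 11.8, 17.6 and 23.4 CPM in A, and 30.8, 11.8, 16.9 and 23.7 CPM in B. With total counts, 11 of these 77 genes were above their stage 9 level in both letters at stage 12.5 and 52 were below it in both. The same shares over all genes, and these counts with TMM scaling, are not given here, so the counts are a description only.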
